A study of Mus musculus and Macaca nemestrina with 20 samples.

Results

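The chemokines, their signalling receptors and the atypical receptors that scavenge them were examined in bulk RNA sequencing of dorsal root ganglia (DRG), the ganglia that hold the cell bodies of sensory neurons. Members were all rows whose symbol begins with Ccl, Cxcl, Cx3cl, Xcl, Ccr, Cxcr, Cx3cr, Xcr or Ackr followed by a number. This gave 68 of 29766 rows in the mouse table and, with the same patterns in capitals, 56 of 35194 rows in the monkey table. The mouse libraries were 7 labelled ADAM17 KO and 7 labelled ADAM17 flox, ADAM17 being a protease of the cell surface that releases membrane-bound ligands and receptors. Both genotypes were run in batches that the labels number: batch 1 had 4 libraries from knockouts and 3 from flox mice, and batch 2 had 3 and 4. The monkey libraries came from pig-tailed monkeys (Macaca nemestrina). Of these, 3 were labelled as DRG from skin that received SADBE (squaric acid dibutyl ester, a contact sensitiser) and 3 as vehicle controls. The Cre driver, the deleted exons, age, sex and the number of animals per library are not given in the sources used here, so the label flox is used here as given, and p-values measure only the spread between libraries.

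Chemokines are small secreted proteins that guide leukocytes along gradients held on glycosaminoglycans. They act on G protein-coupled receptors, and most inflammatory receptors accept several ligands. Atypical receptors bind chemokines without G protein signalling and take them up or move them across cells. In sensory ganglia, chemokines made by glia, fibroblasts, vessels and resident macrophages recruit blood leukocytes, and some act on neurons directly.

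Total counts, in M (1e6), ran from 12.1 to 14.7 M in knockout and from 46.9 to 52.1 M in flox libraries of batch 1. In batch 2 they were 27.9 to 30.8 M and 30.9 to 36.0 M, and in monkeys 9.02 to 27.1 M. The mouse fit included batch. Adam17 itself was not called at the gene level (log2 fold change 0.03 ± 0.18 SE, adjusted p = 0.930 by edgeR), which does not check the deletion because the deleted part is not known. Neuronal markers were present in every library, with summed levels of 3363 to 8828 CPM (counts for every 1e6 counts of the library) over 9 markers in mice and 1679 to 7286 CPM over 8 in monkeys.

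In control ganglia, the members spanned from no count to 178 TPM in mice and 573 TPM in monkeys (a unit of transcript abundance that scales for transcript length, used here to compare genes). In mouse flox DRG, 34 of 68 members stood at 1 TPM or more and 14 at 10 TPM or more. The most abundant was Ccl27a, a skin-homing ligand of Ccr10, at 178 ± 79.4 TPM (mean ± SD, n = 7). Next came the eotaxin Ccl11 (70.0 ± 24.6 TPM) and the homeostatic ligand Cxcl12 (39.9 ± 16.2 TPM). Also among the 10 highest were Ccl2, Ccl6, Ackr1, Ccl21a, Cxcl16 and Ackr3, at means of 28.6, 28.4, 28.3, 26.5, 23.4 and 18.9 TPM. Neighbours in this order overlapped in range, including Ccl27a (86.4 to 277 TPM) and Ccl11 (35.9 to 108 TPM). In monkey vehicle DRG, 29 of 56 members reached 1 TPM. The monocyte attractant CCL2 led at 573 ± 261 TPM (n = 3), ahead of the interferon-induced ligand CXCL10 at 421 ± 361 TPM and the eotaxin CCL26 at 254 ± 201 TPM. CXCL12 stood at 213 ± 102 TPM, CCL1 at 90.1 ± 54.3 TPM and the scavenger ACKR1 at 78.1 ± 46.8 TPM. CCL5, CXCL14, CCL19 and CXCL11 completed the 10 highest, at 42.5, 31.6, 22.2 and 9.92 TPM.

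The 10 highest members of each species shared 3 symbols, Cxcl12, Ccl2 and Ackr1, among 46 symbols present in both tables. Ccl11 ranked 2 in mouse flox DRG but stood at 0.228 TPM in monkey vehicle DRG. CXCL10 had the opposite order, at 4.79 TPM in mouse flox and 421 TPM in monkey vehicle DRG, but its monkey level ran from 12.95 to 700 TPM between libraries. In normalised CPM, CXCL10 had means of 4.04 in mouse flox and 36.9 in monkey vehicle DRG, and CCL2 of 17.6 and 51.7. The size of a species difference in TPM therefore also depends on the transcript lengths used. The species were tabulated separately and no test was made between them.

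**Figure D1:**
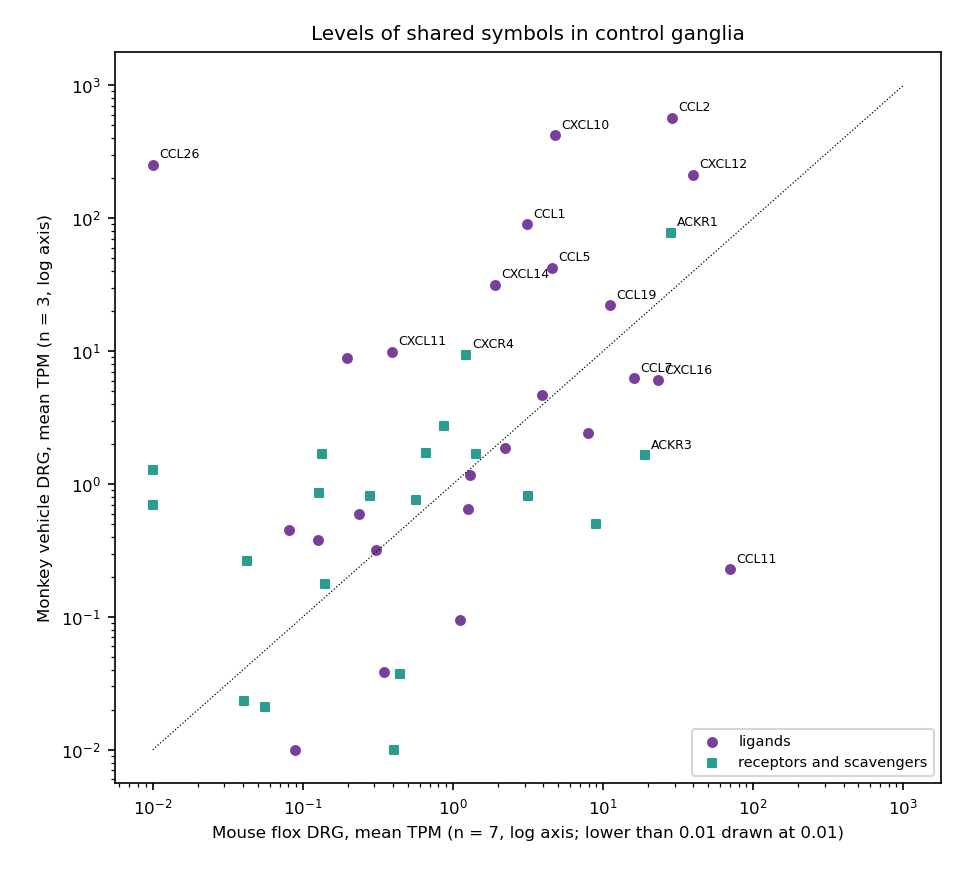
Mean TPM of 45 of the 46 symbols present in both tables, in mouse flox DRG (horizontal, n = 7) against monkey vehicle DRG (vertical, n = 3), both on log axes, with ligands as circles and receptors and scavengers as squares. The dotted line marks equal TPM. CCL2, CXCL10 and CXCL12 lie above it and CCL11 and ACKR3 below it. TPM depends on transcript lengths, which are not given for the monkey.

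The mouse comparison asks how DRG of ADAM17 knockout mice differ from those of flox mice. Most members that passed the test were ligands that were lower in the knockout, led by Ccl21a and Ccl24. The scavenger Ackr4 was lower as well, while Ccl8, Ccr1 and Ackr1 were higher. Of the 68 members, 41 had counts high enough to be tested. Adjusted p fell under 0.05 (Benjamini-Hochberg over all 15654 genes, edgeR quasi-likelihood test with batch) for 13 of 41, or 31.7%, beside 15.5% of all genes tested. Higher were 3 members, Ccl8, Ccr1 and Ackr1 (7.32%, beside 7.97% of all genes). Lower were 10 members (24.4%, beside 7.51%): Ccl21a, Ackr4, Ccl24, Ccl19, Ccl7, Ccl12, Ccl19-ps4, Cxcl16, Ccl11 and Cxcl12. By role, 1 of 27 tested ligand rows rose and 9 fell, 1 of 10 signalling receptors rose and 0 fell, and of 4 scavengers 1 rose and 1 fell. The 9 include the pseudogene row Ccl19-ps4, which may share reads with Ccl19. Summing near-identical rows, an alternative added after the data were seen, gave 12 calls. A fold change below 1, called or not, was fitted for 24 of 41 members (58.5%, beside 50.8% of all genes), and the median log2 fold change of the tested members was -0.36, beside -0.01 over all genes. In bulk ganglia, fewer cells of a type and less RNA per cell cannot be told apart.

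**Figure D2:**
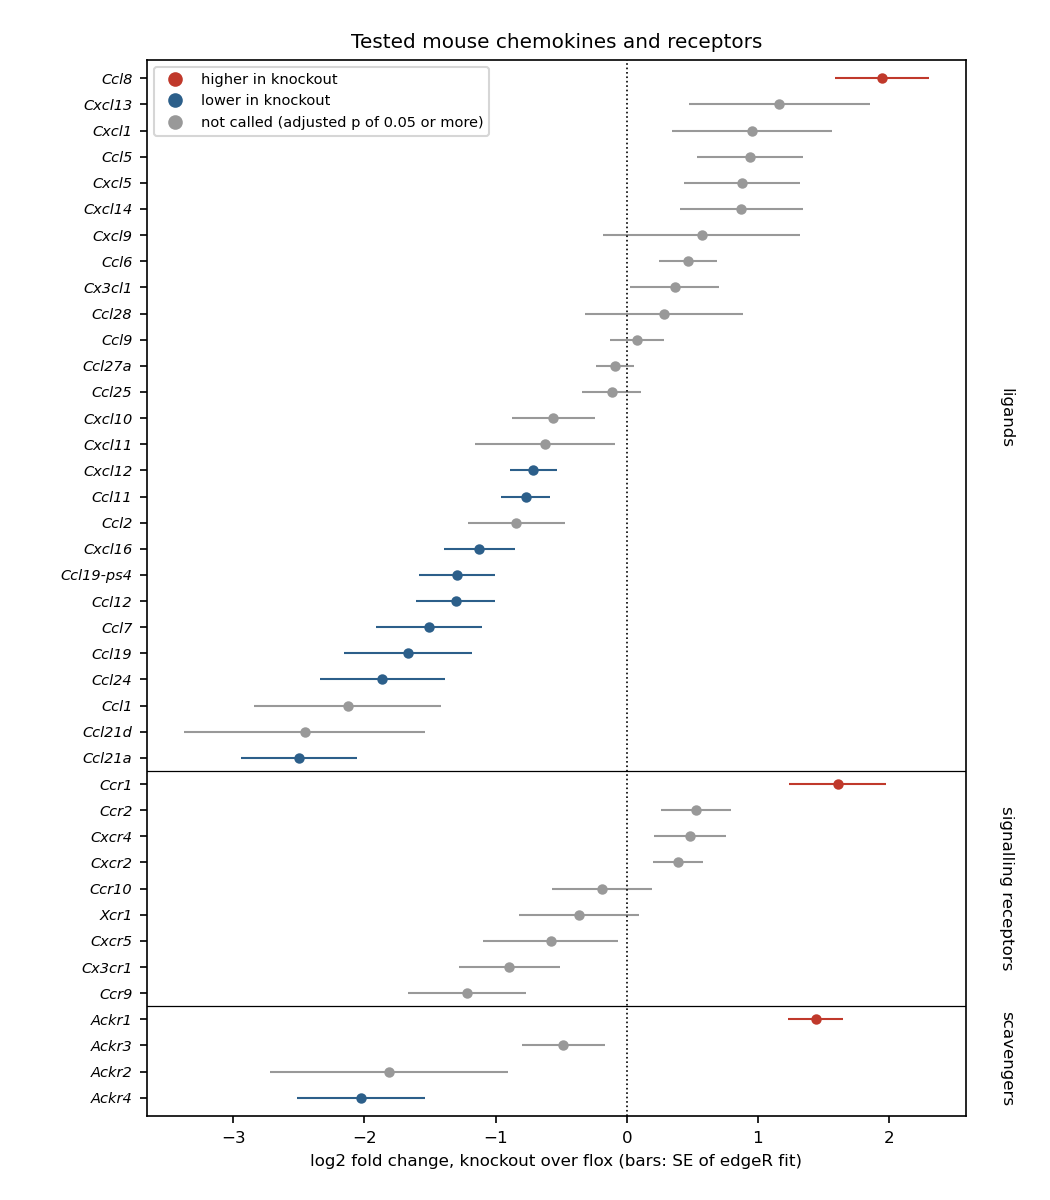
Log2 fold change of knockout over flox for 40 of the 41 tested mouse members, with the standard error of the edgeR fit as bars, grouped into ligands, signalling receptors and scavengers. Red points are the 3 members called higher, blue points the 10 called lower and grey points the rest; the called ligands lie mostly left of 0.

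The ligands of Ccr7, the receptor that guides dendritic cells and naive T cells into lymphoid tissue, gave the largest fall. Ccl21a, made mainly by lymphatic vessels and lymphoid stroma, had a lowest, median and highest level of 3.35, 16.1 and 36.6 normalised CPM in flox and of 1.95, 3.23 and 5.08 in knockout libraries. Flox library 1 lay among the knockout libraries, at 3.35 CPM, and the other 6 flox libraries (5.50 CPM or more) lay above all 7 knockout libraries. The fitted difference was 5.65-fold (log2 fold change -2.50 ± 0.44 SE, adjusted p = 0.00176 by edgeR). It was -2.86 ± 0.73 in batch 1 alone and -2.18 ± 0.42 in batch 2 alone.

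Ccl21a lies on mouse chromosome 4 (GRCm38, 42772860 to 42773993, minus strand) among near-identical copies, which kallisto has to share reads between. The 250 bases before the start of Ccl21a (chr4:42773992-42774241, minus strand) and of its copy Ccl21d (chr4:41903363-41903612, plus strand) come from the RefSeq table of GRCm38.p6. They are printed to show how alike the sequences before these starts are. How alike the transcripts are was not computed. The printed bases are written in gene orientation, in lower case throughout, and share 248 identical bases.
Ccl21a: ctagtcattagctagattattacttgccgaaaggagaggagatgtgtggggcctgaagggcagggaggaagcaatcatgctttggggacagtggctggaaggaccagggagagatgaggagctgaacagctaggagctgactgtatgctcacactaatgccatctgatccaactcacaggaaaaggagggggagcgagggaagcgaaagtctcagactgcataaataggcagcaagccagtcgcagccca
Ccl21d: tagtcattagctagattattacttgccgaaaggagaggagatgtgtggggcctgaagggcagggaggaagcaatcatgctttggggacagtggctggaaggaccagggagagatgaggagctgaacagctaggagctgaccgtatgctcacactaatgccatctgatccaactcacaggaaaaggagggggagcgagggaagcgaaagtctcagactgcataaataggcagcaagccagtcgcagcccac
The Ccl21d row itself had a log2 fold change of -2.46 ± 0.92 and was not called (adjusted p = 0.0841, edgeR), although limma and edgeR without knockout library 7 called it lower. With all 5 Ccl21 rows summed, an alternative added after the data were seen, the log2 fold change was -2.48 ± 0.45 (adjusted p = 0.00220). Summed levels were then 5.22 to 47.4 CPM in flox and 2.59 to 8.10 CPM in knockout libraries.

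Ccl19, the other Ccr7 ligand, lies 18.3 kb from Ccl21a by annotated start. It stood at 2.61, 4.91 and 13.1 CPM (lowest, median, highest) in flox and 0.528, 1.54 and 4.64 CPM in knockout libraries. All 4 batch 1 knockout libraries lay below the 3 flox libraries of that batch, while in batch 2 the genotypes overlapped. The log2 fold change was -1.67 ± 0.49 (adjusted p = 0.0312, edgeR), at -2.98 ± 0.55 in batch 1 and -0.50 ± 0.47 in batch 2. The call was lost without knockout library 2, 3, 4 or 5 or flox library 2 or 7, with adjusted p of 0.0502 to 0.0638. Its pseudogene row Ccl19-ps4 had a log2 fold change of -1.30 ± 0.29 (adjusted p = 0.00808), and reads of the 2 rows may be shared. Summing the 5 Ccl19 rows gave -1.50 ± 0.37 (adjusted p = 0.0134). The receptor Ccr7 was too low to test, with 69 counts over 7 flox and 32 over 7 knockout libraries.

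Ackr4, the scavenger that takes up Ccl19, Ccl21 and Ccl25, was lower as well. Its level was 0.553, 0.902 and 2.10 CPM in flox and 0.0660, 0.266 and 0.510 CPM in knockout libraries. Every knockout library lay below every flox library. The fitted difference was 4.07-fold (log2 fold change -2.02 ± 0.49, adjusted p = 0.0118, edgeR). At this level it was too low to test in batch 1 alone and after thinning all libraries to equal depth. Ackr4 shares 479 exonic bases with Acad11 on the other strand, and Acad11 had a log2 fold change of -0.04 ± 0.13. The third ligand, Ccl25, was not called (-0.11 ± 0.23, adjusted p = 0.769).

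The lymphatic vessel markers Prox1, Lyve1, Flt4 and Pdpn were not called (0 of 4). Their sum was 32.2 to 229 CPM in flox and 22.1 to 246 CPM in knockout libraries, and each had counts. None of the 5 dendritic cell markers was called.

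The monocyte and eosinophil attractants of the CC cluster on chromosome 11 went in opposite directions. Along the chromosome the order is Ccl2, Ccl7, Ccl11, Ccl12, Ccl8 and Ccl1, spread over 141 kb. Ccl7, Ccl11 and Ccl12 were lower, Ccl8 was higher, and Ccl2 and Ccl1 were not called. The plot of log2 fold change along the cluster shows Ccl8 as the single member above 0 when both batches are fitted together.

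**Figure D3:**
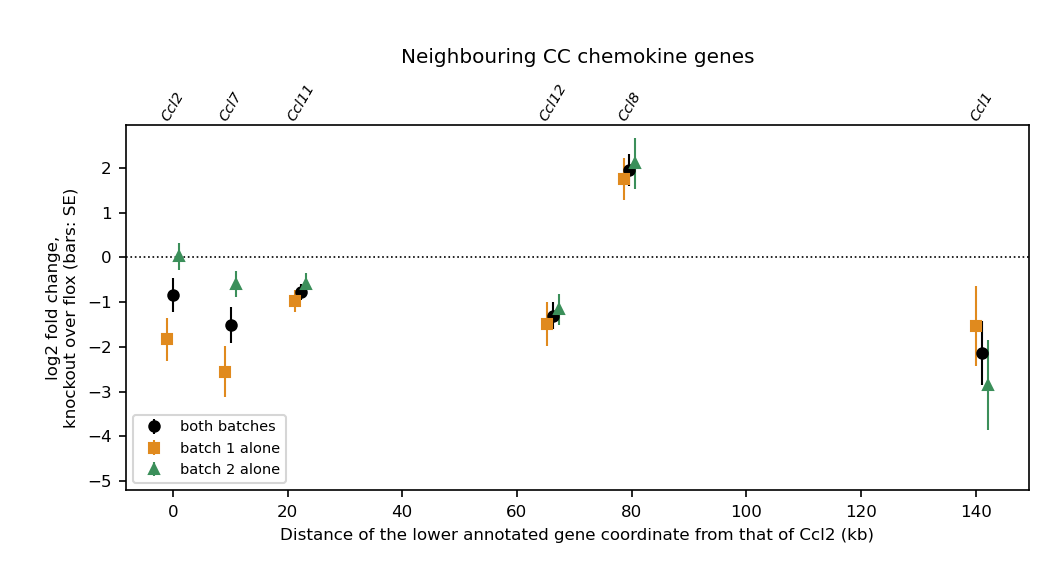
Log2 fold change of knockout over flox (vertical, bars are SE) for 6 neighbouring CC chemokine genes against the distance of each gene from Ccl2 in kb (horizontal). Circles are both batches together, squares batch 1 alone and triangles batch 2 alone, both moved slightly sideways for legibility; Ccl8 is above 0 in each, while Ccl2 is near 0 in batch 2.

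Ccl8, a monocyte chemoattractant protein, had a level of 0.278, 0.677 and 1.20 CPM in flox libraries (lowest, median, highest). In knockout libraries it stood at 1.54, 2.66 and 3.81 CPM. All 7 knockout libraries lay above all 7 flox libraries. The difference was 3.85-fold (log2 fold change 1.95 ± 0.36, adjusted p = 0.00209, edgeR), at 1.75 ± 0.47 in batch 1 and 2.11 ± 0.57 in batch 2.

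Ccl12, a Ccr2 ligand whose gene ends 11.8 kb before Ccl8 begins, moved the other way. It stood at 2.13, 4.82 and 6.15 CPM in flox and 0.953, 1.87 and 2.39 CPM in knockout libraries. Flox library 1 (2.13 CPM) lay below 2 knockout libraries, and the other 6 flox libraries lay above all knockout libraries. The difference was 2.47-fold (log2 fold change -1.31 ± 0.30, adjusted p = 0.00883, edgeR).

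Because these neighbours moved in opposite directions, the 250 bases before each start are shown in gene orientation, Ccl8 from chr11:82114935-82115184 and Ccl12 from chr11:82101595-82101844, both on the plus strand of GRCm38.p6 in the RefSeq table. Capitals mark the letters TATAAA.
Ccl8: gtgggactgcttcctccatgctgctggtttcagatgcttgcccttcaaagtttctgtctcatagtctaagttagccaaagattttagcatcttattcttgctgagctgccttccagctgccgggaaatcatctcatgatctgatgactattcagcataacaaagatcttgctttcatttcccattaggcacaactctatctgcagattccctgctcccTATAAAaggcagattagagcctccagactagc
Ccl12: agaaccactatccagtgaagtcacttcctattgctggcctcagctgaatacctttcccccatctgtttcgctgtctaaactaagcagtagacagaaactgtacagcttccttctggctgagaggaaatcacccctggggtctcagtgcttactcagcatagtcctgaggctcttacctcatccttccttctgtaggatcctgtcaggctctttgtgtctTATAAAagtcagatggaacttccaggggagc
The TATAAA match begins 32 bases before the start of Ccl8 and 31 before that of Ccl12. An alignment with gaps had 150 identical bases among the 250 of each window. Against the promoter of Cxcl1, on chromosome 5, the same alignment gave 134 for Ccl8 and 123 for Ccl12. TATAAA or its reverse TTTATA was found in 12.4% of 32851 promoters of this length, and in 11 of 32 promoters of tested members (34.4%). The table held promoters of 47 of the 68 member symbols.

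Ccl7, a ligand of several monocyte and eosinophil receptors, stood at 4.41, 9.38 and 16.4 CPM in flox and 0.769, 3.33 and 7.69 CPM in knockout libraries. In batch 1 all 4 knockout libraries (3.33 CPM or less) lay below the flox libraries, and in batch 2 knockout library 6 (7.69 CPM) just exceeded flox library 5 (7.68 CPM). The log2 fold change was -1.51 ± 0.41 (adjusted p = 0.0199, edgeR). It was -2.55 ± 0.56 in batch 1 and -0.59 ± 0.29 in batch 2.

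Ccl11, which recruits eosinophils through Ccr3, was the most abundant ligand that fell. Flox libraries held 72.9 to 99.2 CPM in batch 1 and 30.01 to 49.6 CPM in batch 2. Knockout libraries held 34.6 to 68.6 CPM in batch 1, all lower than flox, and 17.2 to 33.3 CPM in batch 2, where the groups overlapped. The difference was 1.71-fold (log2 fold change -0.77 ± 0.18, adjusted p = 0.0111, edgeR).

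Ccl24, another Ccr3 ligand encoded on chromosome 5, was 3.64-fold lower. It had 0.830, 1.13 and 1.91 CPM in flox and 0.0660, 0.238 and 0.723 CPM in knockout libraries, so all knockout libraries lay below all flox libraries. This was a log2 fold change of -1.86 ± 0.48 (adjusted p = 0.0161, edgeR). Its receptor Ccr3 was too low to test.

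Ccl2 and Ccl1 complete the cluster. Ccl2, the main Ccr2 ligand, had 4.77 to 18.5 CPM in flox and 1.99 to 4.84 CPM in knockout libraries of batch 1. In batch 2 the flox libraries had a median of 21.8 and a highest level of 33.4 CPM and the knockout libraries a median of 25.8 and a highest level of 28.2 CPM, and all 3 knockout libraries lay within the flox range. The log2 fold change over both batches was -0.84 ± 0.37 (adjusted p = 0.138, edgeR), with -1.83 ± 0.47 in batch 1 and 0.02 ± 0.30 in batch 2. Ccl1, a Ccr8 ligand, had 0.487 to 1.48 CPM in flox and 0 to 1.01 CPM in knockout libraries. It missed the threshold with edgeR (log2 fold change -2.13 ± 0.71, adjusted p = 0.0542). DESeq2, limma and edgeR without knockout library 1 called it lower.

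The homeostatic ligand Cxcl12 and the membrane-anchored ligand Cxcl16 were lower too. Cxcl12, which retains leukocytes and progenitors through Cxcr4, had 29.8, 66.3 and 96.8 CPM in flox and 20.5, 35.8 and 63.0 CPM in knockout libraries. In batch 2 the 3 knockout libraries (45.5 to 63.0 CPM) lay below the 4 flox libraries (66.3 to 96.8 CPM), and in batch 1 knockout library 4 (35.8 CPM) exceeded flox library 1 (29.8 CPM). The log2 fold change was -0.71 ± 0.18 (adjusted p = 0.0145, edgeR). Its receptor Cxcr4 (0.48 ± 0.27, adjusted p = 0.244) and its scavenger Ackr3 (-0.48 ± 0.32, adjusted p = 0.324) were not called.

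Cxcl16 is made as a membrane protein, binds Cxcr6 and is cleaved by ADAM-family proteases. It had 13.6, 28.1 and 49.0 CPM in flox and 8.04, 11.6 and 30.2 CPM in knockout libraries. All 4 batch 1 knockout libraries lay below the 3 flox libraries by a narrow gap (13.5 against 13.6 CPM), and batch 2 overlapped. The log2 fold change was -1.12 ± 0.27 (adjusted p = 0.0118, edgeR). Zmynd15, which shares 552 exonic bases with Cxcl16 on the other strand, was also lower (-1.68 ± 0.43, adjusted p = 0.0151). The labels do not say whether libraries kept strand, so reads of the shared bases cannot be told apart. Cx3cl1, the other membrane-anchored chemokine, was not called (0.37 ± 0.34, adjusted p = 0.496), nor was its receptor Cx3cr1 (-0.89 ± 0.39, adjusted p = 0.128).

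Fibroblast markers moved with these ligands: 5 of 6 (Col1a1, Col1a2, Col3a1, Pdgfra and Dcn) were lower in the knockout. Their sum was 2917 to 5840 CPM in flox and 1386 to 3373 CPM in knockout libraries, and all 6 had counts. Flox library 1 had the lowest flox sum, 2917 CPM, and knockout libraries 4, 6 and 7 had 3282, 3311 and 3373 CPM. Schwann cell markers were lower for 4 of 5, with sums of 5050 to 10126 CPM in flox and 2975 to 5356 CPM in knockout libraries. Mast cell markers were lower for 2 of 4 (Cma1 and Mcpt4). All 4 had an unadjusted p under 0.05 (edgeR), 3 of them lower and the other higher. The mast cell sums overlapped, at 28.9 to 67.2 CPM in flox and 25.1 to 81.7 CPM in knockout libraries. Neuronal markers went the other way, with 3 of 9 called higher in the knockout. Their sums in batch 2 were 7837 to 8828 CPM in knockout and 5547 to 6942 CPM in flox libraries, without overlap, and in batch 1 they overlapped (4967 to 6424 CPM and 3363 to 5091 CPM). The part of these shifts in the fall of the ligands was not tested.

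**Figure D4:**
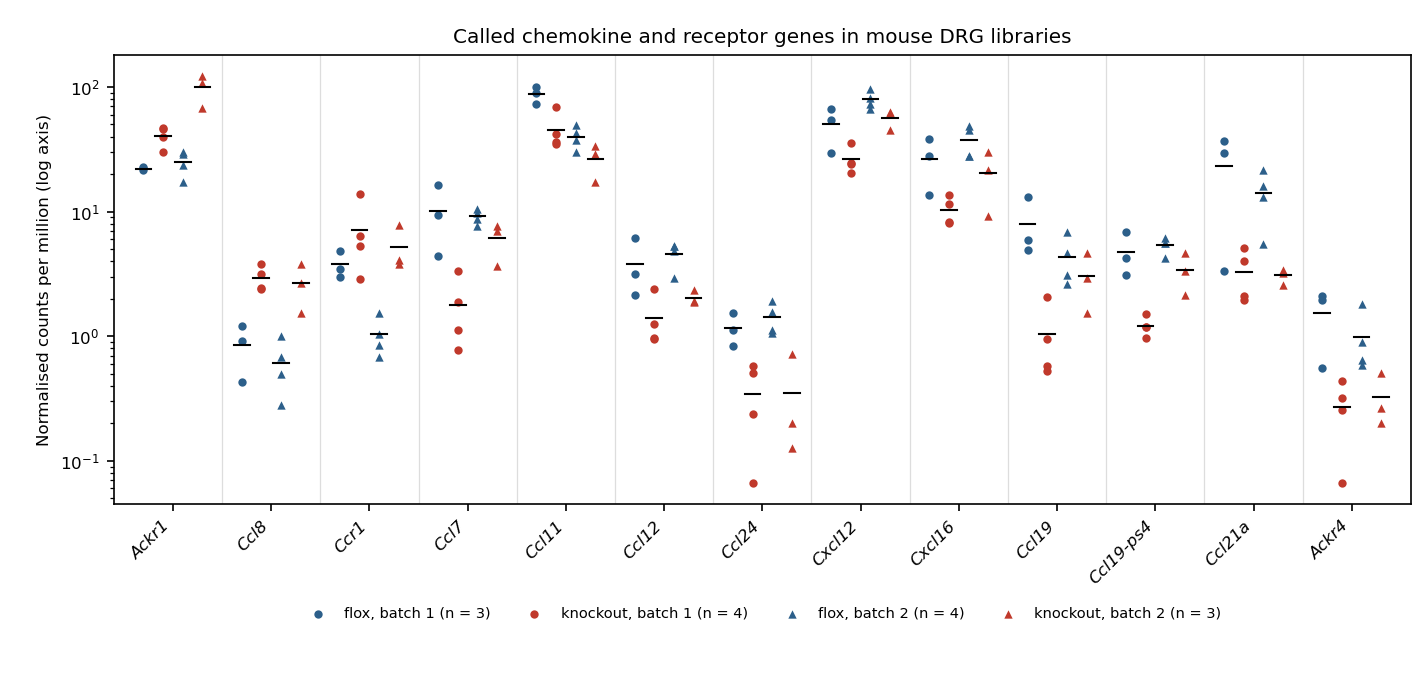
Normalised CPM (log axis) of the 13 called mouse members in each library, with flox in blue, knockout in red, batch 1 as circles and batch 2 as triangles; bars are means of each group within a batch. Ccl8 and Ackr1 are higher in every knockout library than in the flox libraries of its batch, and Ccl24 and Ackr4 lower.

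Among the scavengers, Ackr1 rose. Ackr1, the Duffy antigen receptor that carries chemokines on venular endothelium and red cells, had the lowest adjusted p of the members. Flox libraries held 17.4, 22.8 and 29.9 CPM and knockout libraries 30.3, 46.9 and 123 CPM (lowest, median, highest). The lowest knockout library stood above the highest flox library. The difference was 2.72-fold (log2 fold change 1.44 ± 0.21, adjusted p = 0.000325, edgeR). It was 0.85 ± 0.17 in batch 1 and 2.00 ± 0.23 in batch 2.

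Of the endothelial markers, 0 of 5 were called, with sums of 89.5 to 149 CPM in flox and 74.6 to 163 CPM in knockout libraries. Erythroid markers were not called either (0 of 5), but ranged from 799 to 12202 CPM in flox and from 1270 to 48761 CPM in knockout libraries. Ackr1 shares 361 exonic bases with Cadm3 on the same strand, and Cadm3 was not called (-0.15 ± 0.17, adjusted p = 0.568). Ackr2, which degrades inflammatory CC chemokines, was not called (-1.81 ± 0.91, adjusted p = 0.186).

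Of the signalling receptors, Ccr1 passed the test. Ccr1, carried by monocytes and neutrophils, had 0.684, 1.55 and 4.84 CPM in flox and 2.89, 5.32 and 13.9 CPM in knockout libraries. In batch 2 every knockout library (3.81 CPM or more) was above every flox library (1.55 CPM or less), and in batch 1 the groups overlapped. In the fit Ccr1 had a log2 fold change of 1.61 ± 0.37 (adjusted p = 0.00910, edgeR), at 0.89 ± 0.49 in batch 1 and 2.34 ± 0.44 in batch 2. Its neighbour on chromosome 9, Ccr2 (0.53 ± 0.27, adjusted p = 0.193), was not called.

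Markers of blood myeloid cells moved with Ccr1 and Ccl8: 9 of 10 neutrophil and marrow markers and 3 of 4 monocyte markers were higher in the knockout. The neutrophil sum was 47.6 to 641 CPM in flox and 665 to 5207 CPM in knockout libraries, without overlap. The monocyte sum was 31.4 to 89.6 CPM and 109 to 609 CPM. None of the 9 macrophage markers was called. Of 7 tested T and NK cell markers, 2 were higher, with sums of 6.80 to 13.8 CPM in knockout and 3.15 to 6.44 CPM in flox libraries, again without overlap. All these markers had counts, and their part in the chemokine and receptor differences was not tested.

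The receptors and ligands of neutrophil traffic were not called. Cxcr2, the neutrophil receptor, had 13.5 to 29.6 CPM in flox and 14.6 to 38.3 CPM in knockout libraries (log2 fold change 0.39 ± 0.19, adjusted p = 0.167, edgeR). Its ligands Cxcl1 (0.95 ± 0.61, adjusted p = 0.307) and Cxcl5 (0.88 ± 0.44, adjusted p = 0.188) missed the threshold, and Cxcl2 was too low to test, with 22 counts in flox and 4 in knockout libraries. Cxcr1 had 14 counts spread over 3 of 7 knockout libraries and none in the 7 flox libraries, and was too low to test. Without the filter on low counts edgeR called it. Cxcl13 (1.16 ± 0.69, adjusted p = 0.267) and its receptor Cxcr5 (-0.58 ± 0.52, adjusted p = 0.476), which organise B cell follicles, were not called. Xcr1, the receptor of cross-presenting dendritic cells, was not called (-0.36 ± 0.46), and its ligand Xcl1 and the Cxcl16 receptor Cxcr6 were too low to test.

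Among the most abundant members, Ccl27a was not called, at 29.95 to 82.7 CPM in flox and 29.94 to 61.4 CPM in knockout libraries (-0.09 ± 0.15, adjusted p = 0.713, edgeR). Ccl6, a ligand of Ccr1, had 18.7 to 25.1 CPM in flox and 10.7 to 52.4 CPM in knockout libraries (0.47 ± 0.22, adjusted p = 0.166). In batch 2 its 3 knockout libraries (31.5 to 52.4 CPM) lay above all flox libraries (18.7 to 22.8 CPM), while in batch 1 they overlapped. The 27 untested members had at most 163 counts over all 14 libraries, and 4 had none. They include Ccl3, Ccl4, Ccl17 and Ccl22.

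The batches gave the same direction for all 12 called members that could be tested in each, but not the same size. In batch 1 alone 3 members were called, Ackr1 higher and Ccl19 and Ccl19-ps4 lower, beside 1.8% of all genes. In batch 2 alone 7 were called, beside 13.2% of all genes. Of these, Ackr1, Ccl8, Ccr1, Ccl5, Ccl6 and Ccr2 were higher, and only Ccl21a was lower. Of the 9 members called lower and tested in each batch, 8 had the larger fall in batch 1. Y-linked transcripts summed to 59.9 and 66.8 TPM in knockout libraries 6 and 7, both of batch 2. The other mouse libraries had 1.11 to 3.31 TPM. Sex and genotype therefore cannot be fully told apart in batch 2. A batch by genotype interaction passed the threshold for 0 of 41 members by edgeR (1.03% of all genes), and 10 had an unadjusted p under 0.05 (beside 13.9% of all genes). DESeq2 called it for 4 members, Ackr1, Ccl19, Ccl6 and Ccr2, but the share of all genes is given here for edgeR only. The groups did not overlap within either batch for Ackr1 and Ccl8 (knockout higher, 3.25% of all genes) and for Ackr4 and Ccl24 (knockout lower, 2.25%).

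Other genes of the pathway moved in both directions. Of 25 tested genes of receptor signalling and desensitisation, 4 rose and 3 fell. The risers Elmo1 (1.05 ± 0.11), Rac2 (1.43 ± 0.32), Pik3r5 (0.87 ± 0.27) and Vav1 (0.93 ± 0.29) act downstream of chemokine receptors in leukocyte movement. Those that fell were the phospholipase Plcb3 (-0.53 ± 0.13) and the receptor kinases Grk2 (-0.71 ± 0.21) and Grk3 (-0.63 ± 0.20). Of 20 inducers of chemokine transcription and brakes on it, 4 rose (Il1r1, Nfkbiz, Cebpd and Il6) and Nfkb1 fell. Il6 had the largest change of these, a log2 fold change of 2.30 ± 0.67 (adjusted p = 0.0306, edgeR).

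Of 16 genes that cleave or anchor chemokines, 4 rose and 5 fell. The proteases Ctsg (3.47 ± 0.40), Elane (3.39 ± 0.53) and Mmp9 (1.41 ± 0.37) and the heparan sulfate carrier Sdc1 (1.29 ± 0.13) rose. These 3 proteases are stored in neutrophil granules. The neutrophil markers were higher too, and their part in the protease differences was not tested. Mmp2 (-1.65 ± 0.24), Mmp14 (-0.91 ± 0.16), the inhibitor Timp3 (-0.82 ± 0.16), the heparan sulfate polymerase Ext1 (-0.70 ± 0.18) and the ADAM17 cofactor Rhbdf1 (-0.41 ± 0.12) fell. Of 3 chemokine genes whose names lie outside the symbol rule, the atypical receptor Ccrl2 was lower (-1.29 ± 0.38, adjusted p = 0.0330, edgeR), while Pf4 (-0.77 ± 0.31, adjusted p = 0.110) and Ppbp (-0.27 ± 0.49) were not called.

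The monkey comparison asks how DRG labelled as from SADBE-treated skin differ from those labelled as controls. The labels do not say whether both kinds came from the same animals. Of 56 members 31 were tested, and edgeR called 0, as it did for 0% of the 17988 genes tested. In simulated libraries of this design the fit recovered 0% of 100 genes with a true log2 fold change of 2. The lack of calls therefore does not show that members were unchanged. Unadjusted p was under 0.05 for 3 members, or 9.68%, beside 3.06% of all genes, and all 3 were lower with SADBE (beside 1.62% of all genes lower at that level): CXCL11, CCR7 and CXCL10. A log2 fold change below 0 was fitted for 25 of 31 members (80.6%, beside 50.5% of all genes), with a median of -0.48. Of the members, DESeq2 called CXCL11 alone, with an adjusted p of 0.000189. How many of all genes DESeq2 called is not given here.

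CXCL9, CXCL10 and CXCL11 are interferon-induced ligands of CXCR3 that attract activated T cells. CXCL11 stood at 0.823, 14.2 and 9.27 CPM in vehicle libraries 1 to 3 and at 0, 0 and 0.109 CPM in SADBE libraries 1 to 3. The groups did not overlap, and the SADBE values rest on 2 counts in library 3. The ratio of vehicle to SADBE over summed counts (511 against 2) was 170, with an exact 95% interval of 46.7 to 1404 that covers counting error only. In the fit the unadjusted p was 0.000715 and the adjusted p 0.999 (edgeR).

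CXCL10 stood at 1.23, 41.9 and 67.7 CPM in vehicle and 0, 2.13 and 1.68 CPM in SADBE libraries. Vehicle library 1 lay within the SADBE range, and vehicle libraries 2 and 3 were far above it. It had a log2 fold change of -4.90 ± 1.59, with an unadjusted p of 0.0138 (edgeR). CXCL9 was too low to test, with 66 counts in vehicle libraries, of which 56 were in library 2, and 5 in SADBE libraries. Their receptor CXCR3 was not called (-0.22 ± 0.86). Of the 20 inducers of chemokine transcription and brakes on it, 0 were called. An unadjusted p under 0.05 was found for 3 of them, all lower: the brake TNFAIP3 (-1.66 ± 0.59), IRF1 (-1.36 ± 0.55) and NFKB1 (-1.20 ± 0.51).

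CCR7 stood at 0.470, 4.23 and 1.22 CPM in vehicle and 0.147, 0 and 0.109 CPM in SADBE libraries, without overlap. The fit gave -4.27 ± 1.18 with an unadjusted p of 0.00599 (edgeR), over 142 vehicle and 5 SADBE counts. Its ligand CCL21 was lower in vehicle (2.41, 0.113 and 0.350 CPM) than in SADBE libraries (1.08, 10.8 and 6.14 CPM), although SADBE library 1 lay below vehicle library 1. CCL21 had a log2 fold change of 2.59 ± 1.18, with an unadjusted p of 0.0567. CCL19 overlapped between groups, at 1.49 to 13.8 CPM in vehicle and 2.10 to 5.87 CPM in SADBE libraries. CCR10, the receptor for CCL27 and CCL28, had non-overlapping groups, at 1.38, 1.32 and 3.23 CPM in vehicle and 5.14, 4.04 and 3.75 CPM in SADBE libraries. It was not called (1.14 ± 0.61, unadjusted p = 0.0945). XCR1 was the other member with all SADBE libraries above all vehicle libraries (1.05 ± 0.82, unadjusted p = 0.231). Groups did not overlap for 4.63% of all genes in that direction, and for 4.56% in the direction of CXCL11 and CCR7.

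The most abundant monkey ligands did not separate the groups. CCL2 stood at 27.5, 49.9 and 77.8 CPM in vehicle and 14.9, 56.2 and 55.2 CPM in SADBE libraries (-0.30 ± 0.61). CCL26 stood at 66.4, 19.2 and 14.95 CPM in vehicle and 1.61, 44.0 and 46.7 CPM in SADBE libraries (-0.13 ± 1.02). CXCL12 stood at 216, 68.6 and 133 CPM in vehicle and 20.003, 242 and 219.5 CPM in SADBE libraries (0.20 ± 0.82). SADBE library 1 was the lowest of all 6 for these 3 genes, and also for CXCL14 (1.37 CPM) and CCL5 (2.84 CPM). Its fibroblast marker sum was also the lowest, 669 CPM against 1195 to 4127 CPM in the other 5 libraries, as was its adipocyte sum, 31.3 CPM against 291 to 1133 CPM. Without it the log2 fold change was 0.10 for CCL2 and 0.43 for CCL26, and its part was not tested further. CCL1 (-0.80 ± 0.56), CCL5 (-1.28 ± 0.80) and ACKR1 (-0.48 ± 0.49) were not called.

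**Figure D5:**
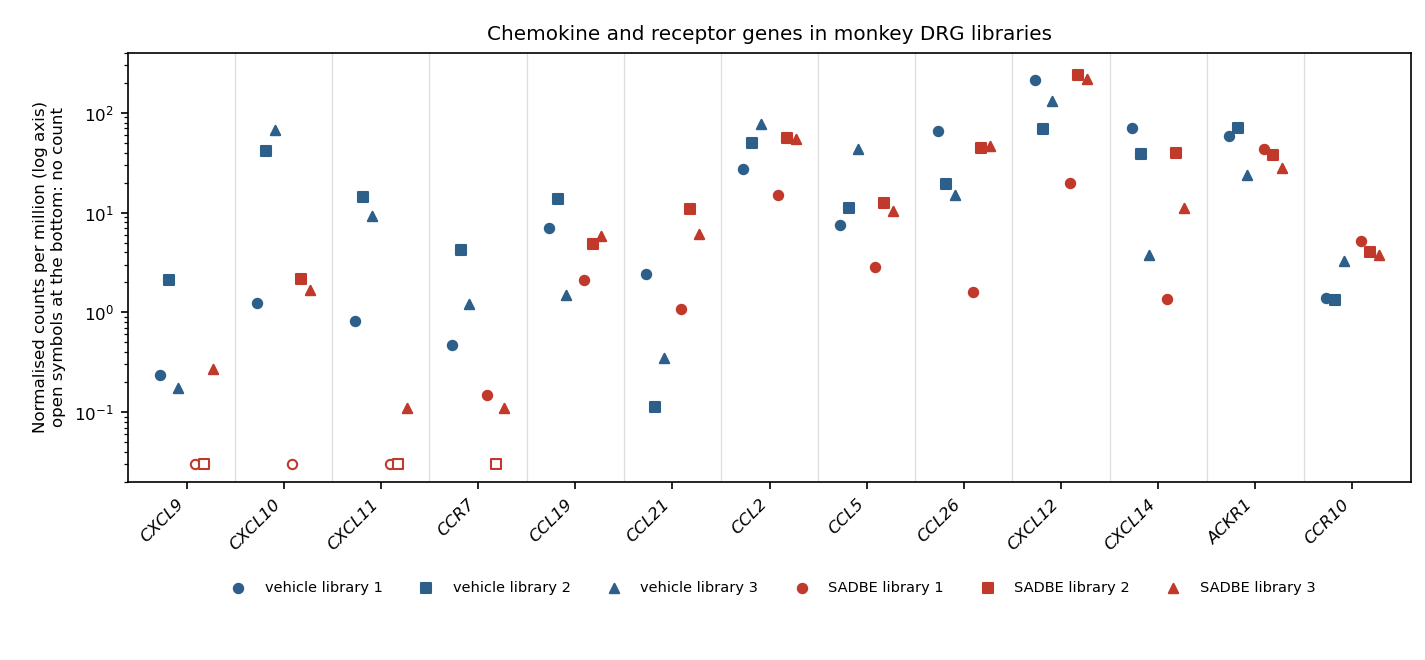
Normalised CPM (log axis) of 13 monkey members in each library, with vehicle in blue, SADBE in red and library numbers as symbols; open symbols at the bottom had no count. CXCL11 and CCR7 are higher in all vehicle libraries, CCR10 in all SADBE libraries, and SADBE library 1 is low for CCL26, CXCL12 and CXCL14.

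Immune marker sums overlapped between monkey groups except for monocyte and dendritic cell markers. The 2 monocyte markers in the table summed to 34.2 to 54.1 CPM in vehicle and 8.999 to 26.6 CPM in SADBE libraries, and the 4 dendritic cell markers to 12.2 to 13.99 and 6.74 to 11.9 CPM. Markers of T and NK cells summed to 14.5 to 38.5 CPM and 8.66 to 24.5 CPM. Vehicle library 1 stood apart, with the lowest neuronal sum (1679 CPM) and the highest neutrophil sum (1284 CPM, against 17.7 to 244 CPM in the other 5 libraries). It was the lowest vehicle library for CXCL10 and CXCL11, and without it the log2 fold change of CXCL11 was -7.92 ± 1.03.

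Side by side, 10 of the 13 symbols called in the mouse were in the monkey table, and 7 of these were tested there. Ackr1 was 1.44 in the mouse and ACKR1 -0.48 ± 0.49 in the monkey, on the log2 fold change scale. Ccr1 was 1.61 and CCR1 -1.29 ± 0.73. Among those lower in the mouse, Ackr4 (-2.02), Ccl24 (-1.86), Ccl19 (-1.67), Cxcl16 (-1.12) and Cxcl12 (-0.71) stood beside monkey values of -1.66 ± 1.42, -0.24 ± 1.08, -0.81 ± 0.79, -0.88 ± 0.63 and 0.20 ± 0.82. None of these monkey values was called, and each lay within 2 SE of 0. CCL7, CCL8 and CCL11 were too low to test in the monkey, with 41, 36 and 6 counts over its 6 libraries.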

How the data were processed

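Bulk RNA of fresh frozen DRG was sequenced for 14 mouse and 6 monkey libraries, per the labels' protocols. The authors deposited estimated counts (with fractions) and TPM for each gene. Kallisto and the build GRCm38 are named in the submitters' processing notes. The kallisto version and monkey transcriptome are not given in the sources used here. Deposited mouse TPM columns sum to 0.601 to 0.979 times 1e6, so TPM is used for levels only. Estimated counts were rounded, the row that names no gene (at most 0.186% of counts) was left out, and genes were tested by quasi-likelihood in edgeR 4.0.16 under R 4.3.3 (filterByExpr with a minimum count of 10 and a minimum total of 15, TMM, Benjamini-Hochberg over all genes, called under 0.05), with batch as a term in mice. On simulated data the mouse fit recovered 62% of 100 genes with a true log2 fold change of 1, up or down. It recovered 88% of 100 genes with a true change of 2. The monkey fit recovered 0% of each such 100, and its 2 calls were both false. SE is the log2 fold change divided by the root of F. Levels per library are CPM of the TMM-scaled library. No pair of libraries held identical counts. SADBE libraries 2 and 3 were the most alike of the monkey pairs within a group, and summing them was tried. The mean chi-square per gene between their counts was 29.0, against 297 to 559 in the other such pairs.

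Alternatives were DESeq2 1.42.0, RLE scaling, no filter, thinned counts, limma 3.58.1 on log2(TPM + 1) and log2(TPM + 0.1), each batch alone, no batch term, a replicate block and leaving out each library. Coordinates come from GENCODE M21 (62 of 68 members), promoters from RefSeq (GRCm38.p6). Named genes were the called members, the 10 highest in controls, fixed ligand and receptor pairs, and in monkeys the 5 lowest p and the symbols called in mice. A few further members (Ccl1, Ccl5, Ccl21d, Ccl25, Ackr2, Cxcr1 and others given by counts) were named after their values were seen. One member enters the fits and counts but is not reported here, and is left out of the plots. The members and lists were chosen with earlier results of these data known.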

Additional observations from a re-analysis of the deposited data

Results flagged for a closer look

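In groups of 4 libraries of 1 genotype and batch, a library was looked at again when its gap to the nearest other, divided by the range, passed Dixon's 95% critical value. Of 56 such groups tested, 2 passed, and chance alone flags about 1 in 20. Ccl12 stood at 2.94 CPM in flox library 5, below the 4.82 to 5.32 CPM of the other 3 flox libraries of batch 2. This value still lay above the 1.87 to 2.36 CPM of the 3 knockout libraries of that batch. Cxcl13 had no count in knockout library 2 (0 CPM), against 0.660 to 0.873 CPM in the other 3 knockout libraries of batch 1.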

How the results depend on the processing

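The 13 mouse calls kept their direction under every alternative, and DESeq2, RLE scaling, no filter and both limma fits called all 13. DESeq2 added Ccl1 and Ccr9, no filter added Cxcr1, and both limma fits added Ccl1, Ccl19-ps1 and Ccl21d. With 1 library left out edgeR added Ccl1 and Ccl6 (without knockout 1), Ccr9 (4), Cx3cr1 (5) or Ccl21d (7). Leaving out 1 library gave 3 to 4 members higher and 9 to 11 lower, and the interaction gave 0 to 1 (Ackr1 without knockout 5, Ccr2 without flox 1). Without the batch term 6 of the 13 stayed called, 4 of them lower. The calls of Ccl11, Ccl19, Ccl19-ps4, Ccl7, Ccr1, Cxcl12 and Cxcl16 were lost. Batch 1 alone gave 1 higher and 2 lower, and batch 2 alone 6 higher and 1 lower; these fits use fewer libraries. DESeq2 called 4 interactions, and 1 monkey member. Same-numbered libraries of the 2 groups correlated above 0.1 in 2 of 7 mouse pairs and 2 of 3 monkey pairs. The best partner had the same number in 2 mouse pairs and 1 monkey pair. These correlations cannot show whether same-numbered monkey libraries came from 1 animal. With the replicate block 3 members were higher and 7 lower, 8 of the 10 shared with the 13, and 0 in monkeys. Thinned counts kept 11 calls and left Ackr4 and Ccl24 untested. Leaving out the 2 knockout libraries with high Y-linked transcripts (knockout 6 and 7) gave 15 calls, 13 of them shared, and added Ccl2 and Ccl21d. The median interaction term of the members was then -0.07, beside 0.45 with all libraries. Apart from each batch alone, the share of all genes called under these alternatives is not given here. A change in the number of member calls therefore cannot be read as particular to the members.

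The interaction terms listed below turned sign in members that were called by genotype, but none of these interactions was called. Log2 fold changes of genotype or of SADBE that turned sign were all of members not called in that comparison. In batch 1 alone these were Ccl27a 0.14, Ccl6 -0.13, Ccr2 -0.22 and Cxcl1 -0.12, and in batch 2 alone Ccl2 0.023 and Cxcr5 0.16. With 1 library left out Cx3cl1 ran from -0.024 to 0.50 (below 0 without knockout 3) and Ccl27a from -0.19 to 0.0049 (above 0 without knockout 5). Interaction terms ran from -1.34 to 0.13 for Ccl24, -0.028 to 0.65 for Ccl8 and -0.24 to 0.68 for Ccl12 with 1 library left out, and turned sign for Ccl11 (-0.27), Ccl8 (-0.48) and Cxcl16 (-0.68) without the Y-linked libraries. In monkeys CXCL12 was -0.25 to 0.72 with 1 library left out, -0.040 with the replicate block, -0.058 and -0.072 by limma (pseudocounts 1 and 0.1) and -0.20 with SADBE 2 and 3 summed. CCL24 was 0.16 with the block, 0.23 by limma (pseudocount 0.1) and -0.82 to 0.44 with 1 library left out, CCL2 -0.61 to 0.10, and CCL26 -0.59 to 0.84. The cause was not tested. Depth limits the members below about 1 CPM, and with 3 monkey libraries a group edgeR called no gene.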
